A study of Mus musculus with 6 samples.

Results

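The globin genes described here are 7 of the 48587 gene rows of a count table made from ribosome-associated RNA of mouse kidneys labelled neonatal. They comprise 3 embryonic genes (Hbb-y, Hbb-bh1 and Hba-x) and 4 adult genes (Hbb-bs, Hbb-bt, Hba-a1 and Hba-a2). They were chosen by these measured counts, because the embryonic globins exceeded the adult beta globins in the same libraries, so embryonic against adult levels are given as a description, without a test. All 7 passed the filter on low counts.

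The 6 libraries fell into 2 groups of 3. Every animal carried Cdh16Cre, a Cre recombinase driven from the gene of a cadherin of kidney tubule epithelium, and RiboTag, an allele that adds an HA tag to a ribosomal protein where Cre has acted. The littermate controls were Foxp1fl/+ and the Foxp1-deficient animals Foxp1fl/fl at the locus of Foxp1, a forkhead transcription factor gene. All mice were perfused with PBS before the kidneys were taken, and tagged ribosomes were pulled down with beads carrying an anti-HA antibody. The labels say neonatal without an age in days, and give no strain. Whether all 6 libraries are of the labelled age and tissue was not tested, and the embryonic shares given for them hold for the libraries as labelled. They do not say that each replicate is an animal of its own, so the spread behind each p-value may be a technical one. The treatment label reads vehicle for controls and chronic acid load for Foxp1-deficient libraries, while the protocols describe no acid load, so genotype and treatment cannot be told apart.

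Totals ran from 9710048 to 18958196 counts per library, so 3 counts, the limit that a count of 0 allows, stood for 0.158 to 0.309 counts per 1000000 (CPM). Foxp1 itself had 51.4 CPM in control 1, 26.0 in control 2 and 40.5 in control 3, against 36.3, 9.17 and 33.7 CPM in their equally numbered Foxp1-deficient counterparts, lower in 3 of 3 pairs with overlapping groups. This value sums all exons, those outside the floxed part included. The libraries numbered 2 stood apart in both groups, with 13885 and 14285 genes detected against 18241 to 22190 in the other 4. They also had 6.65% and 8.72% of counts in 4 gene rows of ribosomal RNA type, against 1.49% to 2.85%. These rows were Rn18s-rs5, Gm23935, Gm26917 and Lars2, the last of which is a protein-coding gene. The labelled cell type, kidney tubular cells, was not borne out evenly by its markers. The summed level of 10 tubule markers lay between 35.9 and 473 CPM among the controls, and between 60.3 and 601 CPM among the Foxp1-deficient libraries. Umod, the uromodulin gene of the thick ascending limb, had 78.9 and 87.1 CPM in the libraries numbered 3. It had at most 0.773 CPM in the libraries numbered 1, and no count in those numbered 2. Lrp2, another of the 10, was counted in all 6 libraries. It had 34.9, 27.4 and 115 CPM in controls 1, 2 and 3, against 55.2, 97.4 and 203 CPM in their Foxp1-deficient counterparts. Cdh16, the gene that drives Cre, had 0.350, 9.23 and 48.6 CPM in these controls, against 0.297, 1.96 and 48.5 CPM.

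Hemoglobin is built from alpha-like and beta-like globin chains that carry heme. In the mouse, each kind of chain is encoded by a cluster in which the embryonic genes lie ahead of the adult ones. Primitive red cells, which arise in the yolk sac, transcribe the embryonic genes together with adult alpha globin. Definitive red cells, made in the fetal liver and later in bone marrow, transcribe mainly the adult genes and make up most of the red cells in circulation at birth.

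In mm10, as the table gives it, Hbb-y (epsilon-y) spans 103851749 to 103853216 and Hbb-bh1 (beta-h1) spans 103841637 to 103843164 on the minus strand of chromosome 7. The adult genes Hbb-bs and Hbb-bt span 103826534 to 103828096 and 103812524 to 103813996 on the same strand. On the plus strand of chromosome 11, Hba-x (zeta) spans 32276400 to 32278116, Hba-a1 spans 32283511 to 32284465 and Hba-a2 spans 32296489 to 32297298. Counts were summed over exons of 613 bases (Hbb-bh1) to 938 bases (Hba-x) per gene, and no exon of the 7 genes overlapped an exon of another row. The annotated genes Hba-x, Hbb-bs and Hba-a1 reached 200, 168 and 161 bases beyond their RefSeq starts on the promoter side.

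Promoter sequence was found in RefSeq (GRCm38.p6) for 6 of the 7 genes. The 120 bases before the RefSeq start are printed for 2 embryonic and 3 adult genes. They set embryonic promoters beside adult ones, and the adult beta copies beside each other. Each is written 5′ to 3′ on the coding strand, and capitals mark CACCC, the motif CCAAT, the motif TATAA or the motif GATAA, read on either strand.
Hbb-y, chr7:103853208-103853327, minus strand: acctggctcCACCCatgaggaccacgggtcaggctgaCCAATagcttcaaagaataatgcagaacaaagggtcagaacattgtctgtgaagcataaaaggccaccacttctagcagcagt
Hba-x, chr11:32276480-32276599, plus strand: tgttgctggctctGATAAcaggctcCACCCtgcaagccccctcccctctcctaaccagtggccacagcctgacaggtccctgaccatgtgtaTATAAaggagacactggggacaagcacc
Hbb-bs, chr7:103827929-103828048, minus strand: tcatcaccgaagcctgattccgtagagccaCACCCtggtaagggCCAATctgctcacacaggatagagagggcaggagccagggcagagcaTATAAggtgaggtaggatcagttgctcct
Hbb-bt, chr7:103813924-103814043, minus strand: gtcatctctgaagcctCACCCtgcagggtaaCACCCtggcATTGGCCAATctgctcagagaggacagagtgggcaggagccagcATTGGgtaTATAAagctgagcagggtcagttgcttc
Hba-a1, chr11:32283552-32283671, plus strand: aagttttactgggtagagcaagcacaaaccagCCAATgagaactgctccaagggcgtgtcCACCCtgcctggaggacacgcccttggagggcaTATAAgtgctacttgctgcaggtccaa

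CACCC, a motif bound by KLF proteins of red cell precursors, lay in all 5 printed windows and in 31.7% of the 32851 RefSeq promoter windows of this length. CCAAT, or ATTGG on the other strand, lay in those of Hbb-y, Hbb-bs, Hbb-bt and Hba-a1 and in 21.3% of all windows. TATAA lay in those of Hba-x, Hbb-bs, Hbb-bt and Hba-a1 and in 11.8% of all windows. GATAA, part of the motif bound by GATA factors, lay in that of Hba-x alone among the 5 and in 10.5% of all windows. The printed Hbb-bt window held 2 CACCC and 3 CCAAT matches, against 1 of each in that of Hbb-bs. These matches describe letters and show no binding.

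Over the 300 bases that RefSeq gives around each start, Hba-a1 and Hba-a2 shared an unbroken run of 297 bases. Hbb-bs and Hbb-bt were 71.3% identical, with a longest shared run of 14 bases, and Hbb-y was 51.0% identical to Hbb-bs. Pairs of a beta-like with an alpha-like gene were 44.0% to 49.2% identical. The counting command in the file header has no option to count reads that map to several places, so reads from stretches shared by adult copies may be missing from the table. The levels of the adult genes and the split between copies are therefore uncertain, and how many reads were lost was not tested.

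**Figure D1:**
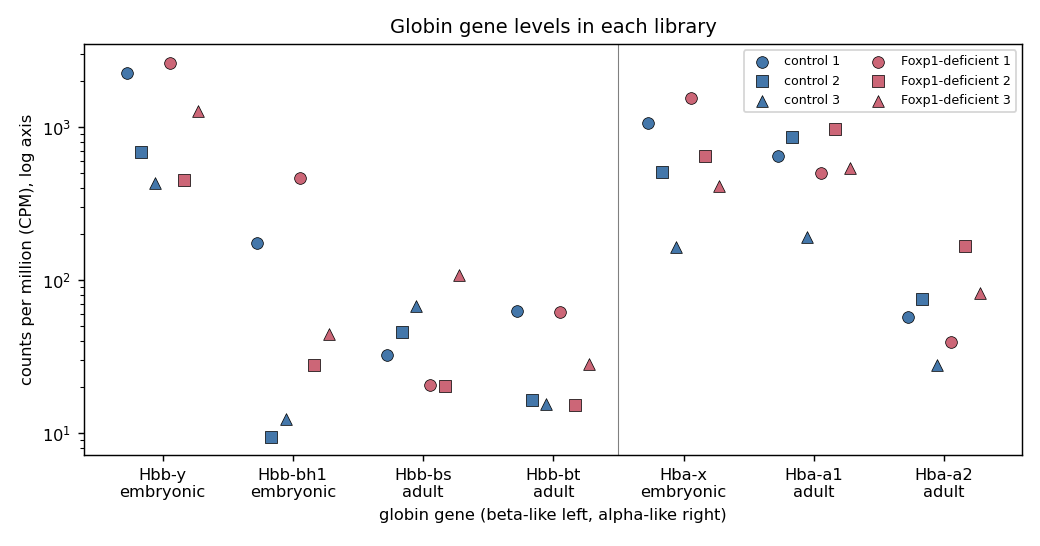
CPM (log axis) of the 7 globin genes in each of the 6 libraries, by group and replicate number. Hbb-y lies between 433 and 2624 CPM, above Hbb-bs and Hbb-bt in every library, and the groups overlap for each of the 7 genes.

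Hbb-y RNA was abundant in every library. It had 2242 CPM in control 1, 689 in control 2 and 433 in control 3, against 2624, 451 and 1269.5 CPM in their equally numbered Foxp1-deficient counterparts. The libraries numbered 1 were highest in both groups, and the groups overlapped.

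Hbb-bh1, the other embryonic beta-like gene, varied most. It had 175 CPM in control 1, 9.50 in control 2 and 12.3 in control 3, against 463, 27.8 and 44.3 CPM in their equally numbered Foxp1-deficient counterparts. The highest library exceeded the lowest 48.7-fold, against 4.07-fold for Hbb-bt to 9.40-fold for Hba-x among the other 6 genes. Both libraries numbered 1 stood above the other 4, and in each pair the Foxp1-deficient library was the higher.

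Hba-x, the embryonic alpha-like gene, had 1054 CPM in control 1, 506 in control 2 and 164 in control 3, against 1544, 644 and 409.6 CPM in their equally numbered Foxp1-deficient counterparts. The libraries numbered 1 again came first in each group and those numbered 3 last, and the groups overlapped.

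The adult beta genes, Hbb-bs and Hbb-bt, had far fewer counts. Hbb-bs had 32.6 CPM in control 1, 45.7 in control 2 and 67.4 in control 3, against 20.5, 20.3 and 107 CPM in their equally numbered Foxp1-deficient counterparts. Hbb-bt had 62.5, 16.5 and 15.6 CPM in controls 1, 2 and 3, against 61.6, 15.3 and 28.4 CPM in the Foxp1-deficient counterparts. The copies ranked the libraries differently: Hbb-bs was highest in the libraries numbered 3, and Hbb-bt in those numbered 1.

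The adult alpha genes, Hba-a1 and Hba-a2, had a library order of their own. Hba-a1 had 641 CPM in control 1, 862 in control 2 and 191 in control 3, against 501, 963 and 541 CPM in their equally numbered Foxp1-deficient counterparts. Hba-a2 had 57.0, 75.5 and 27.9 CPM in controls 1, 2 and 3, against 39.6, 167 and 82.7 CPM in the Foxp1-deficient counterparts. Both were highest in the libraries numbered 2 in each group. The count of Hba-a1 was 5.77 to 12.6 times that of Hba-a2.

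Of the other globin genes of the clusters, Hbb-bh0 had 0.490 CPM in control 1, 0 in control 2 and 1.10 in control 3, against 1.31, 4.33 and 3.06 CPM in their equally numbered Foxp1-deficient counterparts. Its groups did not overlap, as for 4.16% of the 14311 genes tested, and edgeR's quasi-likelihood test gave a log2 fold change of 2.63 (SE 1.46, adjusted p = 0.9998). Hbq1b, a theta globin, had at most 3.99 CPM, and Hbb-bh2 and Hbq1a at most 0.238 CPM. Outside the clusters, Mb (myoglobin), Ngb (neuroglobin) and Cygb (cytoglobin) had at most 0.595, 3.30 and 3.02 CPM.

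**Figure D2:**
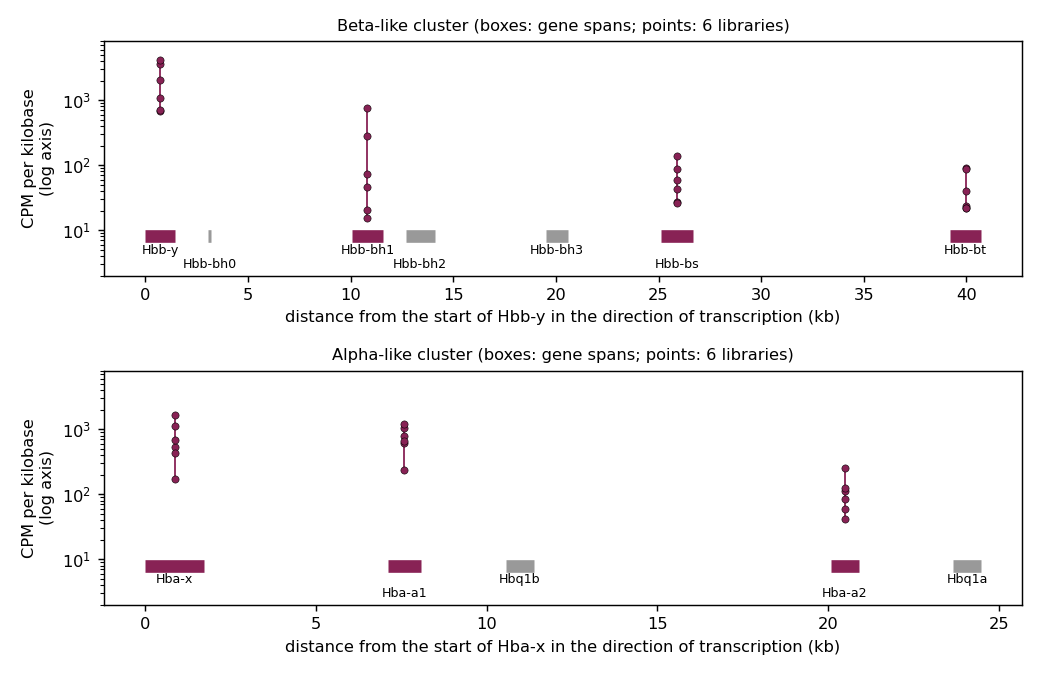
Levels per exon length (CPM per kilobase, log axis) along the beta-like and alpha-like clusters, by distance in kilobases from the start of the first embryonic gene in the direction of transcription. Points are libraries, and Hbb-y, at the head of its cluster, spans 684 to 4145 CPM per kilobase.

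Levels were compared between genes in CPM per kilobase of exon. By the median of the 6 libraries, they ran from Hbb-y (1547 CPM per kilobase) through Hba-a1 (728), Hba-x (613), Hba-a2 (99.4), Hbb-bh1 (58.8) and Hbb-bs (51.0) to Hbb-bt (31.9). Hbb-y lay above Hba-a1 in 5 of 6 libraries and above the other 5 genes in all 6. Hba-a1 and Hba-x did not separate, Hba-a1 being the higher in 4 of 6. Both lay above Hba-a2, Hbb-bs and Hbb-bt in all 6 libraries. The 4 lowest genes changed places, each lying above the next in 3 or 4 of 6 libraries.

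Per kilobase, Hbb-y exceeded Hbb-bs 7.79-fold to 155-fold and Hbb-bt 30.8-fold to 49.7-fold. The ratio to Hbb-bt was the steadier, as both genes were highest in the libraries numbered 1. Hbb-y exceeded its embryonic neighbour Hbb-bh1 5.49-fold to 70.3-fold, least in Foxp1-deficient library 1 and most in control 2.

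**Figure D3:**
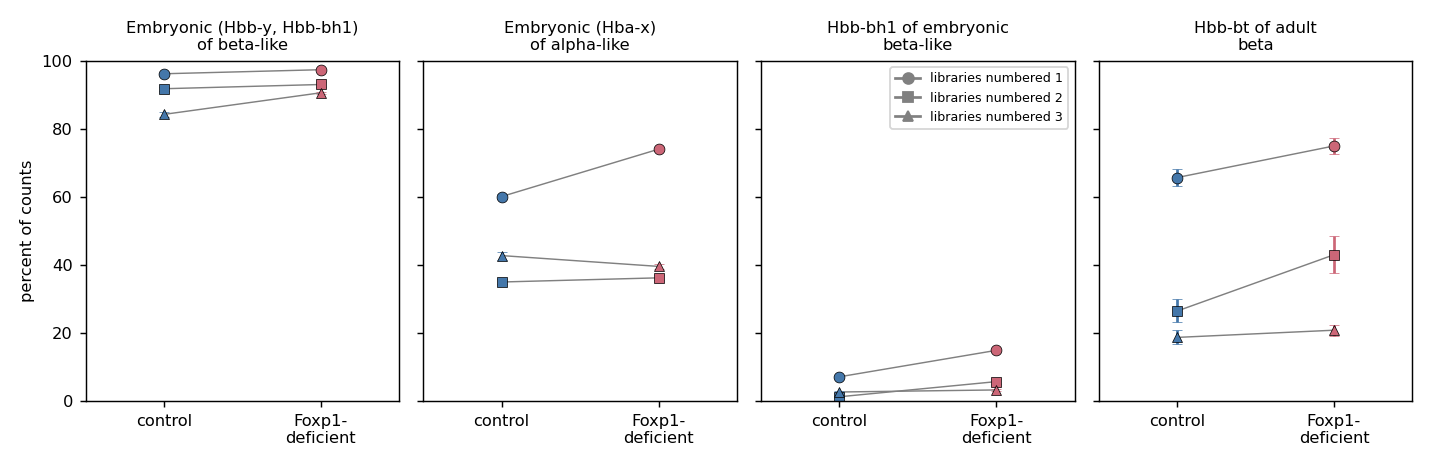
Shares of globin counts in percent, by group, with grey lines joining equally numbered libraries and bars for exact 95% binomial intervals, most of them smaller than the markers. The embryonic share of beta-like counts lies between 84.3% and 97.4%, and that of alpha-like counts between 35.1% and 74.1%.

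Embryonic genes held most beta-like globin counts in each of the 6 libraries. The share of Hbb-y and Hbb-bh1 was 96.2% in control 1 (exact Clopper-Pearson 95% interval 96.0% to 96.4%, of 35875 counts), 91.8% in control 2 (91.2% to 92.4%, of 8571) and 84.3% in control 3 (83.5% to 85.0%, of 9618). In Foxp1-deficient libraries 1, 2 and 3 it was 97.4% (97.3% to 97.5%, of 53305), 93.1% (92.3% to 93.8%, of 4991) and 90.6% (90.3% to 91.0%, of 27480). These intervals cover counting error at most, and not the spread between libraries. Reads missing from stretches shared by the adult copies would make these shares too high, and the intervals do not cover this. The sources used here mention no molecular identifiers, so copies of 1 fragment may be counted separately and the intervals may be too narrow. The mean was 90.8% ± 6.03 (SD, n = 3) over the controls, against 93.7% ± 3.43 (SD, n = 3) over the Foxp1-deficient group, a difference within the spread between libraries. The Foxp1-deficient library was higher by 1.19, 1.25 and 6.35 percentage points in pairs 1, 2 and 3, and the groups overlapped.

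The embryonic share of alpha-like counts was lower and more variable. Hba-x held 60.2% of them in control 1, 35.1% in control 2 and 42.8% in control 3, against 74.1%, 36.3% and 39.6% in their Foxp1-deficient counterparts. By these counts it outnumbered the adult alpha genes in the libraries numbered 1 and not in the other 4. Reads missing from stretches shared by Hba-a1 and Hba-a2 would make this share too high. Whether Hba-x RNA exceeded adult alpha RNA in any library is therefore uncertain. The mean was 46.0% ± 12.8 (SD, n = 3) over the controls, against 50.0% ± 20.9 (SD, n = 3) over the Foxp1-deficient group, and the Foxp1-deficient library was higher in 2 of 3 pairs.

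The make-up within each kind differed by replicate number as well. Hbb-bh1 held 7.22% of embryonic beta-like counts in control 1, 1.36% in control 2 and 2.76% in control 3, against 15.0%, 5.81% and 3.37% in their Foxp1-deficient counterparts. Hbb-bt held 65.7% of adult beta counts in control 1, 26.5% in control 2 and 18.8% in control 3, against 75.0%, 43.1% and 20.9% in their counterparts. In all 3 pairs both shares were higher on the Foxp1-deficient side, and both overlapped between groups. In the libraries numbered 1, Hbb-bt thus held most of the adult beta counts, and in the other 4 Hbb-bs did. This split is uncertain, as reads shared by the copies may be missing. In Foxp1-deficient library 2 it rests on 346 counts.

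The balance of chains set the libraries numbered 2 apart. Beta-like genes held 34.5% of the counts of the 7 genes in control 2 and 22.5% in Foxp1-deficient library 2, against 57.9% to 60.3% in the other 4. The lower number of detected genes and the higher share of the 4 gene rows of ribosomal RNA type in these 2 libraries moved with it. Their part in it was not tested.

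The 7 genes together held 0.426% of all counts in control 1, 0.220% in control 2 and 0.0912% in control 3, against 0.525%, 0.229% and 0.248% in their Foxp1-deficient counterparts. The mean was 0.246% ± 0.169 (SD, n = 3) over the controls, against 0.334% ± 0.166 (SD, n = 3) over the Foxp1-deficient group. Without control 1, the mean of the controls was 0.156%. The Foxp1-deficient library was higher in each of the 3 pairs, by 0.0988, 0.00834 and 0.157 percentage points, and the groups overlapped. In such bulk samples, more red cells and more globin RNA per cell cannot be told apart, and other causes were not tested.

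**Figure D4:**
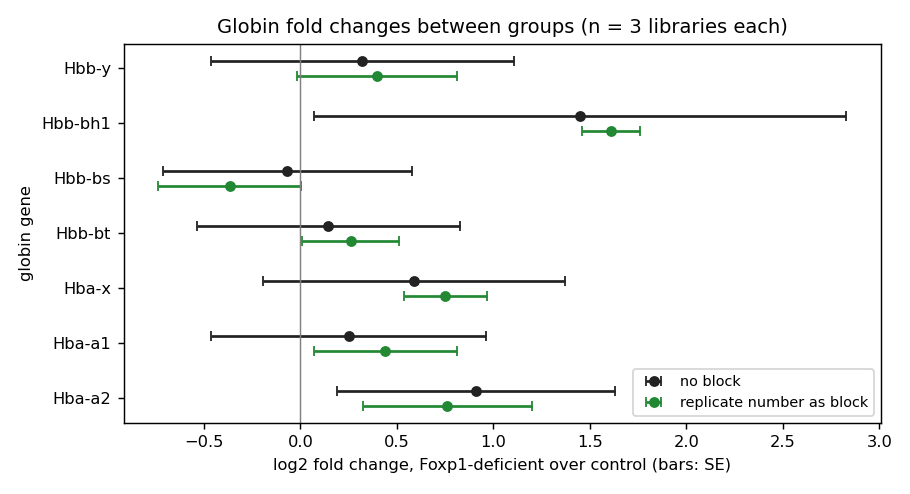
log2 fold change of each globin gene, Foxp1-deficient over control, from edgeR without and with the replicate number as a block, with standard errors. Hbb-bh1 has the highest value in both fits, 1.45 and 1.61, and its standard error is 1.38 without the block and 0.15 with it.

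No globin gene differed between Foxp1-deficient and control libraries at an adjusted p under 0.05, and neither did any of the 14311 genes tested (0% higher and 0% lower, edgeR's quasi-likelihood test). At an unadjusted p under 0.05, edgeR found 0 of the 7 globins and 0.720% of all genes. The log2 fold change was above 0 for 6 of the 7 globins, beside 53.6% of all genes, and below 0 for 1 (Hbb-bs, which turned to 0.026 with library totals in place of TMM scaling), beside 46.4%. Its median was 0.32 over the globins beside 0.03 over all genes. For none of the 7 did the groups separate, beside 4.16% of all genes (2.10% higher and 2.07% lower). Hbb-y averaged 1122 ± 979 CPM over the controls against 1448 ± 1098 CPM over the Foxp1-deficient group, Hbb-bh1 65.5 ± 94.5 against 178 ± 247 CPM, and Hba-x 575 ± 449 against 866 ± 599 CPM (SD, n = 3 each). Hbb-bs averaged 48.6 ± 17.6 against 49.4 ± 50.2 CPM, Hbb-bt 31.5 ± 26.8 against 35.1 ± 23.8 CPM, Hba-a1 565 ± 342 against 668 ± 256 CPM, and Hba-a2 53.5 ± 24.0 against 96.4 ± 64.8 CPM. For each of the 7, the difference between the means was smaller than the larger of the 2 SDs.

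The log2 fold changes were 0.32 (SE 0.78) for Hbb-y, 1.45 (SE 1.38) for Hbb-bh1 and 0.59 (SE 0.78) for Hba-x. Those of the adult genes were -0.07 (SE 0.65) for Hbb-bs, 0.14 (SE 0.68) for Hbb-bt, 0.25 (SE 0.71) for Hba-a1 and 0.91 (SE 0.72) for Hba-a2, and the adjusted p was 0.9998 for all 7 in edgeR's quasi-likelihood test. With the copies summed before the fit, the values were 0.32 (SE 0.71) for Hba-a1 with Hba-a2 and 0.02 (SE 0.43) for Hbb-bs with Hbb-bt. Without the block, leaving out 1 library turned the sign of each of the 7 genes in at least 1 case. Such a fit leaves the equally numbered library of the other group without its partner, so it also carries the difference between replicate numbers. Without Foxp1-deficient library 1, Hbb-y had -0.43, Hba-x -0.033 and Hbb-bt -0.52, and without Foxp1-deficient library 2, Hba-a1 had -0.33 and Hba-a2 -0.028.

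Libraries with the same number deviated together from their group means over all genes, so the replicate number was also fitted as a block. Hbb-bh1 was higher in the Foxp1-deficient library by 1.41, 1.55 and 1.84 on the log2 scale in pairs 1, 2 and 3, and Hba-x by 0.55, 0.35 and 1.32. These were the 2 globins higher in 3 of 3 pairs, as were 16.5% of all genes, and no globin was lower in all 3. For Hbb-y the differences were 0.23, -0.61 and 1.55, and for Hbb-bs -0.67, -1.17 and 0.67, so each changed sign among pairs.

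With the block, edgeR's quasi-likelihood test gave Hbb-bh1 a log2 fold change of 1.61 (SE 0.15, adjusted p = 0.276). Its unadjusted p was the one ranked 5 among all genes tested, and its adjusted p missed the threshold. Hba-x had a blocked log2 fold change of 0.75 (SE 0.21, adjusted p = 0.853 in edgeR's quasi-likelihood test). These 2 globins had an unadjusted p under 0.05 with the block, as had 3.07% of all genes in the higher and 2.26% in the lower direction. The other 5 globins did not. With both libraries numbered 2 left out, an alternative added after seeing the data, the blocked value of Hbb-bh1 was 1.60 with an adjusted p of 0.0376 in edgeR's quasi-likelihood test, where 0.183% of 15303 genes were called higher and 0.0131% lower. Without Foxp1-deficient library 1, which leaves control 1 (the highest control) unpaired, the unblocked value of Hbb-bh1 was -0.80, while all 3 paired differences were above 0.

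Across the 6 libraries, Hbb-bt was the adult gene most like the embryonic ones. Its Pearson correlation in log2 CPM with the mean of the 3 embryonic genes was 0.95, beside 0.24 for Hba-a1, -0.11 for Hba-a2 and -0.49 for Hbb-bs. Between single genes it was 0.97 for Hbb-y with Hbb-bt, 0.84 for Hba-a1 with Hba-a2 and -0.29 for Hbb-bs with Hbb-bt. These values describe 6 libraries that share depth and replicate structure, and the 2 libraries numbered 1 are high for every embryonic gene and for Hbb-bt.

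Among genes with a mean of at least 5 CPM, those most like the mean embryonic level included Tmod2 (r = 0.98), Ermap (0.98), Ide (0.98), Acta1 (0.98), Kif14 (0.97), Eif1ax (0.96), Ddb1 (0.96), Gm7613 (0.96) and Fbxw7 (0.95). Ermap encodes a surface protein of red cells. It had 10.9 CPM in control 1, 0.977 in control 2 and 0.824 in control 3, against 16.5, 1.75 and 1.69 CPM in their equally numbered Foxp1-deficient counterparts. Like the embryonic globins, it was highest in the libraries numbered 1.

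**Figure D5:**
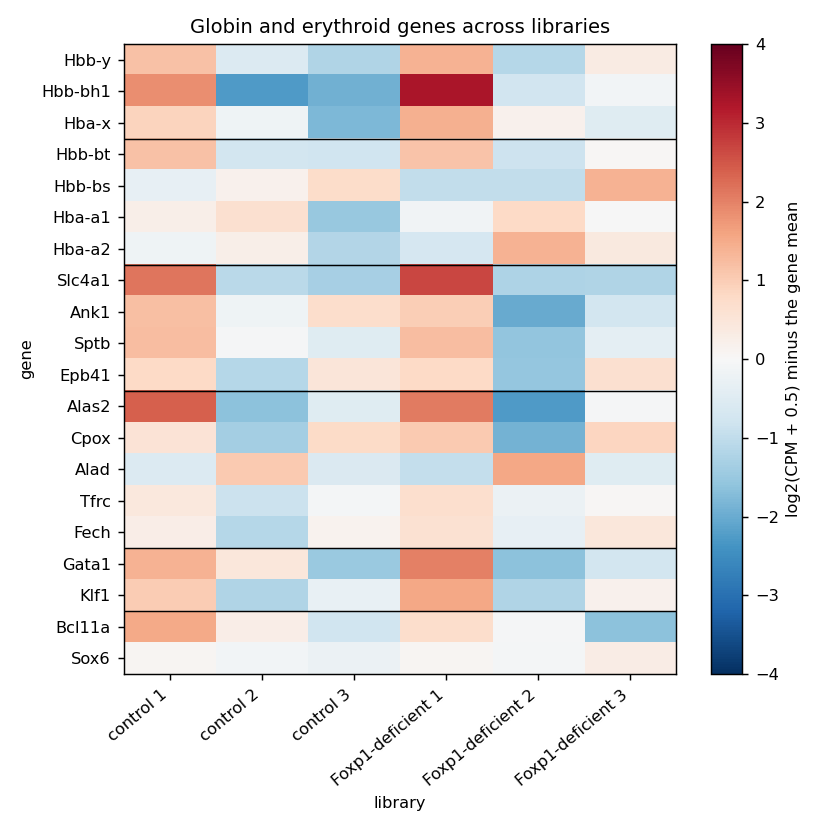
log2 CPM (with 0.5 added) of the globins and of red cell, heme and switching genes in each library, as the difference from each gene's mean over the 6 libraries. The columns of the libraries numbered 1 are high for the embryonic globins, Hbb-bt, Slc4a1 and Alas2, while Alad is high in those numbered 2.

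The red cell surface gene Slc4a1 was high in the same libraries as the embryonic globins. It encodes the anion exchanger of red cells, which some kidney tubule cells also express. Slc4a1 had 83.5, 8.52 and 7.03 CPM in controls 1, 2 and 3, against 119.97, 7.52 and 7.65 CPM in their Foxp1-deficient counterparts. It was highest in the libraries numbered 1. The skeleton genes Epb41 and Ank1, which other cells also express, ran from 18.2 to 94.9 and from 3.91 to 41.3 CPM, and the spectrin gene Sptb reached 12.6 CPM. Of 15 genes in this list, 13 were tested and 0 called. The log2 fold change was above 0 for 10 and below 0 for 3, with a median of 0.32. Beside this list and those that follow, all genes tested gave 53.6% above 0, 46.4% below 0 and a median of 0.03.

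Heme synthesis genes split by library. Alas2, the erythroid enzyme of the first step, had 55.5 CPM in control 1, 2.93 in control 2 and 7.14 in control 3, against 44.8, 1.75 and 9.81 CPM in their equally numbered Foxp1-deficient counterparts. Its correlation with the mean embryonic level was 0.82. Alad, the enzyme of the next step in all cells, had 73.9, 224 and 72.2 CPM in controls 1, 2 and 3, against 56.1, 316 and 77.9 CPM in the Foxp1-deficient counterparts, with a correlation of -0.50. Cpox and Fech, enzymes of late steps, ran from 30.8 to 239 and from 24.9 to 85.4 CPM, and Tfrc, the transferrin receptor, from 43.9 to 128 CPM. All 14 genes of heme synthesis and iron uptake were tested and 0 were called, with 9 above and 5 below 0 and a median log2 fold change of 0.19.

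Gata1 and Klf1 encode defining transcription factors of red cell precursors. Gata1 had 3.57 CPM in control 1, 1.60 in control 2 and 0.0549 in control 3, against 5.71, 0 and 0.422 CPM in their equally numbered Foxp1-deficient counterparts. Klf1 had 1.82, 0 and 0.439 CPM in controls 1, 2 and 3, against 2.91, 0 and 0.791 CPM in the Foxp1-deficient counterparts. Both had their highest values in the libraries numbered 1, and Klf1 had no count in those numbered 2. The cofactor genes Ldb1 and Zfpm1, which are not limited to red cells, had 91.6 to 408 and 105.5 to 175 CPM. Both were lowest in the libraries numbered 1 of each group. Correlations with the mean embryonic level were 0.77 for Gata1, 0.73 for Klf1, 0.53 for Tal1 and 0.55 for Nfe2. They were -0.63 for Ldb1, -0.47 for Zfpm1 and -0.63 for Lyl1. The list summed to 239, 413 and 327 CPM in controls 1, 2 and 3, against 255, 578 and 329 CPM in the Foxp1-deficient counterparts. All 10 genes of this list were tested and 0 were called, with 6 above and 4 below 0. Among other erythroid genes, Hemgn reached 16.9 CPM, Trim10 9.87 CPM, Bpgm 22.7 CPM and Blvrb 30.0 CPM, and 0 of 4 tested were called.

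Over the 41 tested genes of these 4 lists, the correlation with the mean embryonic level was above 0 for 31, above 0.7 for 15 and below 0 for 10. The shares of all genes tested at these values were not computed. These counts therefore do not set the 4 lists apart from other genes, and Tmod2 and Ide, outside the lists, reached 0.98.

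Regulators of globin switching were measured alongside. Bcl11a, a repressor of embryonic globins, had 10.0 CPM in control 1, 3.91 in control 2 and 1.59 in control 3, against 5.47, 3.09 and 0.686 CPM in their equally numbered Foxp1-deficient counterparts. Sox6, which acts with it, had 49.6, 43.6 and 39.9 CPM in controls 1, 2 and 3, against 49.9, 44.7 and 58.5 CPM in the Foxp1-deficient counterparts. Bcl11a was lower and Sox6 higher in the Foxp1-deficient library of 3 of 3 pairs, as for 16.1% and 16.5% of all genes, and neither passed edgeR's quasi-likelihood test (adjusted p = 0.9998 for each). Both genes are also expressed outside red cells. Hmga2, a fetal chromatin protein gene, ran from 243 to 509.9 CPM over the controls and from 97.9 to 452 CPM over the Foxp1-deficient group. It too was lower in 3 of 3 pairs, by log2 differences of -0.18, -0.81 and -1.31 in pairs 1, 2 and 3. Those of Sox6 were 0.01, 0.04 and 0.55. With the block, Hmga2 had an adjusted p of 0.853 in edgeR's quasi-likelihood test. Of 13 genes in this list, 12 were tested and 0 called, with 7 above and 5 below 0 and a median log2 fold change of 0.12.

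Genes that clear hemoglobin and heme did not share the library pattern of the embryonic globins. Hmox1, the heme-degrading enzyme, ran from 67.7 to 462 CPM and was highest in the libraries numbered 3 in both groups. Slc48a1, a heme transporter, ran from 83.1 to 184 CPM, and Blvra, which reduces biliverdin, from 12.9 to 28.7 CPM. The plasma scavenger genes Hp and Hpx reached 26.8 and 14.1 CPM, and both were highest in control 2. Of 6 genes, 5 were tested and 0 called, with 1 above and 4 below 0 and a median log2 fold change of -0.50.

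Markers of other cells moved differently from the globins. All 8 leukocyte markers were lower in the Foxp1-deficient library of 3 of 3 pairs, as were 16.1% of all genes, with sums of 281 to 985 CPM among the controls against 54.0 to 448 CPM in the other group. At the adjusted threshold 0 of the 8 were called, while with the replicate block 7 of 8 had an unadjusted p under 0.05 in edgeR's quasi-likelihood test, beside 2.26% of all genes in that direction. The 6 megakaryocyte and platelet markers summed to 95.4, 32.3 and 33.5 CPM in controls 1, 2 and 3. In the Foxp1-deficient counterparts they summed to 15.2, 31.8 and 31.1 CPM, so the groups were far apart in pair 1 only. Of these markers 4 were tested and 0 called, and 0 had an unadjusted p under 0.05 in edgeR's quasi-likelihood test, with or without the block. Fetal liver hepatocyte markers summed to 24.1 to 232 CPM among the controls and 23.9 to 94.2 CPM in the other group. They were highest in the libraries numbered 2, with Alb from 9.39 to 132 CPM. Visceral endoderm markers of the yolk sac summed to 15.5 to 165 CPM and 15.4 to 67.6 CPM, also highest in the libraries numbered 2. The members of these 2 lists did not move together. Afp, which is in both lists, had no count in the libraries numbered 2 and at most 4.78 CPM in the others. Apoa1 of the yolk sac list had 112 CPM in control 2 and 46.5 CPM in Foxp1-deficient library 2. Apoa2 of the liver list had 79.2 and 19.1 CPM in the same libraries. For both genes these were the highest values of each group. Stromal markers summed to 4077 to 14957 CPM and 2486 to 15298 CPM, highest in the libraries numbered 3. Endothelial markers summed to 55.0 to 174 CPM and 98.1 to 187.5 CPM, and markers of nephron progenitors and podocytes to 55.9 to 198 CPM and 73.3 to 164 CPM. Of 6 placental trophoblast markers, 5 had no count in any library. None of these lists was highest in both libraries numbered 1, as the embryonic globins were. Their part in the globin levels was not tested.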

How the data were processed

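RNA pulled down with HA-tagged ribosomes was sequenced from 3 control and 3 Foxp1-deficient mouse kidney libraries labelled neonatal, grouped and numbered by their titles. The authors deposited 1 table of raw counts of fragments per gene name, counted by featureCounts 1.5.1 from read pairs on the exons of an mm10 annotation (version 86), with no option for strand or multi-mapping reads, per the file headers. The submitters' processing notes list STAR, Trimmomatic, FastQC, deepTools, SAMtools and DESeq2, and give no version of any. How reads were trimmed and aligned is not given in the sources used here. Besides counts, the authors' deposited table gives exon length in bases.

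Counts were tested across the whole table with edgeR 4.0.16 (R 4.3.3): TMM factors, filterByExpr, quasi-likelihood test and Benjamini-Hochberg adjustment over the 14311 genes kept, with a threshold of 0.05. CPM are counts per 1000000 of the library total, and CPM per kilobase divide them by exon length. Pair differences and correlations used log2 CPM with 0.5 counts added. The fit was run on simulated counts with large planted changes and no structure by replicate number. This was a check of the code, and it does not measure power or error rate on these libraries.

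Equal replicate numbers come from the titles, which do not say what they mark. Over all genes, the deviations from group means correlated at 0.57, 0.53 and 0.62 in the equally numbered pairs, and at -0.43 to 0.06 in the others, so the numbers were taken to pair the libraries. Alternatives were this block, DESeq2 1.42.0, other filters and scaling, and libraries left out.

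The globins and the gene lists were chosen with earlier results of these data known. Named genes are the 7 globins, the other globins, up to 5 genes of highest mean CPM per list plus Bcl11a, Sox6, Alas2, Gata1 and Klf1, and the 10 genes most correlated with the embryonic globins. Hbb-bh0 and the markers Umod, Lrp2, Cdh16, Alb, Afp, Apoa1 and Apoa2 were named after their values were seen. Some genes that this rule names are not reported here. Hbb-b1, Hbb-b2, Hba-ps3 and Ahsp were not analysed here.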

Additional observations from a re-analysis of the deposited data

How the results depend on the processing

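Of 153 recomputed values, 133 kept their direction, side of the threshold or range, and 17 log2 fold changes reversed sign. The count of genes called was 0 in the main analysis (103 at an unadjusted p under 0.05) and with the replicate block (762 unadjusted), 6 with DESeq2 (186 unadjusted), and 30 with the replicate block and both libraries numbered 2 left out (1711 unadjusted). The cause was not tested. DESeq2 gave no p for Hbb-bh1. With the replicate block, the log2 fold changes were 0.40 for Hbb-y, 1.61 for Hbb-bh1, 0.75 for Hba-x, -0.37 for Hbb-bs, 0.26 for Hbb-bt, 0.44 for Hba-a1 and 0.76 for Hba-a2, and it changed no call. With both libraries numbered 2 left out and the block, Hbb-bh1 had 1.60 and passed the threshold. Hbb-bs, at -0.07, turned to 0.026 with library totals in place of TMM, to 0.32 with both libraries numbered 2 left out, and to 0.034 with these left out and the block. Leaving out 1 library at a time gave log2 fold changes of -0.43 to 1.23 for Hbb-y, -0.80 to 3.97 for Hbb-bh1, -0.033 to 1.25 for Hba-x, -1.13 to 0.29 for Hbb-bs, -0.52 to 1.05 for Hbb-bt, -0.33 to 0.86 for Hba-a1 and -0.028 to 1.40 for Hba-a2. Signs changed without control 2, control 3, Foxp1-deficient library 1 or Foxp1-deficient library 2. The mean embryonic and globin shares stayed within 1 SD under the alternatives run, an SD that control 1 widens: without it the mean globin share of the controls was 0.156% in place of 0.246%. With 3 libraries a group, differences of the size of the standard errors were not detectable.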
